A study of Mus musculus with 8 samples.

Results

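The EGF receptor family, its ligands and the receptor inhibitor Lrig1 were followed as 10 named genes of the 54838 in the count files, in 8 pieces of mouse liver. The genes were the receptors Egfr, Erbb2 and Erbb3, the ligands Egf, Tgfa, Areg, Ereg, Btc and Hbegf, and Lrig1. They were taken by name and found by matching gene symbols to the Ensembl identifiers. The rule uses no measured level, though the set was drawn up with earlier results of these data known. The study measured polyadenylated RNA by bulk sequencing in 4 liver tumours and 4 non-tumour liver pieces. All pieces came from wild-type male mice of the C57BL/6J strain. Every mouse, in both groups, had received an intraperitoneal injection of the liver carcinogen diethylnitrosamine (DEN) on day 15 and was fed a high-fat diet (HFD) with SW, which the labels do not expand. The labels place sampling at 30 weeks, counted once as time after injection and once as length of diet, so the exact age is uncertain. No untreated liver was part of the comparison, and both groups therefore carry the carcinogen and the diet.

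Epidermal growth factor (EGF) family ligands are made as membrane-anchored precursors that proteases release. A released ligand binds a receptor outside the cell, the receptors pair, and their kinase domains phosphorylate tails that recruit the RAS-MAPK and PI3K-AKT pathways. Hepatocytes carry EGFR and ERBB3, and signalling through EGFR is known for its part in liver regeneration. LRIG1 is a membrane protein that binds ERBB receptors and promotes their degradation.

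The shared feature of the ligands is a short stretch held together by cysteines. The reading frames of 5 ligands are shown over this stretch, because the levels below concern genes whose products compete for the same receptor. The bases were read from the GENCODE transcripts of GRCm38, 5′ to 3′ along the coding strand, and capitals mark the 6 cysteine codons. Tgfa lies on chromosome 6, Btc, Areg and Ereg on chromosome 5, and Egf on chromosome 3.
Tgfa: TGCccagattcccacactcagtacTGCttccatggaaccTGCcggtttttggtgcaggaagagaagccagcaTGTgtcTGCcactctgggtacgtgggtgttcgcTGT
Btc: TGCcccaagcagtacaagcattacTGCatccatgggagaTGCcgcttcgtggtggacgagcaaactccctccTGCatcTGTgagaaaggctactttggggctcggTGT
Areg: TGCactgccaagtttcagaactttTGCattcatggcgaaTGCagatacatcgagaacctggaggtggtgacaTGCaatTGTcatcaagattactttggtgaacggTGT
Ereg: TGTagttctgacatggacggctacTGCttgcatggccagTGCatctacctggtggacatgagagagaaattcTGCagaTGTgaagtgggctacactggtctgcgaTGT
Egf: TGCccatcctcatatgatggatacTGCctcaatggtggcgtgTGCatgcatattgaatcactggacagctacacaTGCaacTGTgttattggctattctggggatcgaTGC

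The spacing of the cysteine codons was the same in Tgfa, Btc, Areg and Ereg, which each span 108 bases here, while the Egf stretch has 111. Base by base, Btc and Tgfa were the closest pair at 62% identity, and Ereg and Tgfa the most distant at 45.4%. The genes Ereg (GRCm38 chr5:91074622-91093646), Areg (chr5:91139599-91148432) and Btc (chr5:91357261-91402994) lie close together, with Ereg and Areg on the plus strand and Btc on the minus strand. Within the group, Ereg and Areg had some of the lowest levels and Btc a higher one, as given below.

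Libraries were not all independent, and this bears on every comparison. The libraries of tumours 2 and 4 gave nearly the same counts gene by gene, and so did those of non-tumour pieces 2, 3 and 4. The chi-square of their counts, divided by its degrees of freedom, was between 1.58 and 3.28 in these 4 pairs, against 71.7 to 165 in the other 24 pairs of libraries. Differences this small are close to counting noise, so each such set was summed and counted as 1 sample. This left 5 distinct profiles, of which 3 were tumour (tumour 1, tumour 2/4 and tumour 3) and 2 were non-tumour (non-tumour 1 and non-tumour 2/3/4). Nothing in the labels ties the pieces to separate mice, and each p-value here measures only the spread between these samples, which may be technical. Totals were between 15446690 and 21977052 counts per library, and 3 counts, taken as the detection floor, corresponded to 0.137 to 0.194 CPM (counts scaled to a fixed library total). The defining hepatocyte marker Alb was present throughout and took 7.57% to 13.9% of counts. In bulk tissue, fewer cells of a type and less RNA per cell cannot be told apart.

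Per exon length, 2 receptors stood above all other genes of the family. Levels of different genes were compared in TPM, transcripts scaled to exon length and then to a fixed sum per library. They averaged 60.5 ± 25.4 for Egfr and 32.5 ± 6.48 for Erbb3 over the 5 profiles (SD, n = 5). Egfr was above 95.1% of genes with reads, and it exceeded Erbb3 in 4 of the 5 profiles, so their ranges overlapped. Lrig1 averaged 8.88 ± 2.67 TPM and Tgfa 6.99 ± 2.74 TPM, which overlapped with each other and lay below Erbb3 in every profile. Below Tgfa there was a further gap. Btc averaged 1.76 ± 0.640 TPM, under Tgfa in all 5 profiles, and Hbegf averaged 0.979 ± 0.571 TPM. The last 4 were Areg at 0.352 ± 0.409 TPM, Erbb2 at 0.307 ± 0.157 TPM, Ereg at 0.254 ± 0.161 TPM and Egf at 0.0783 ± 0.0245 TPM. Neighbours in this lower order overlapped in range, and Areg, Erbb2 and Ereg changed places between profiles.

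**Figure D1:**
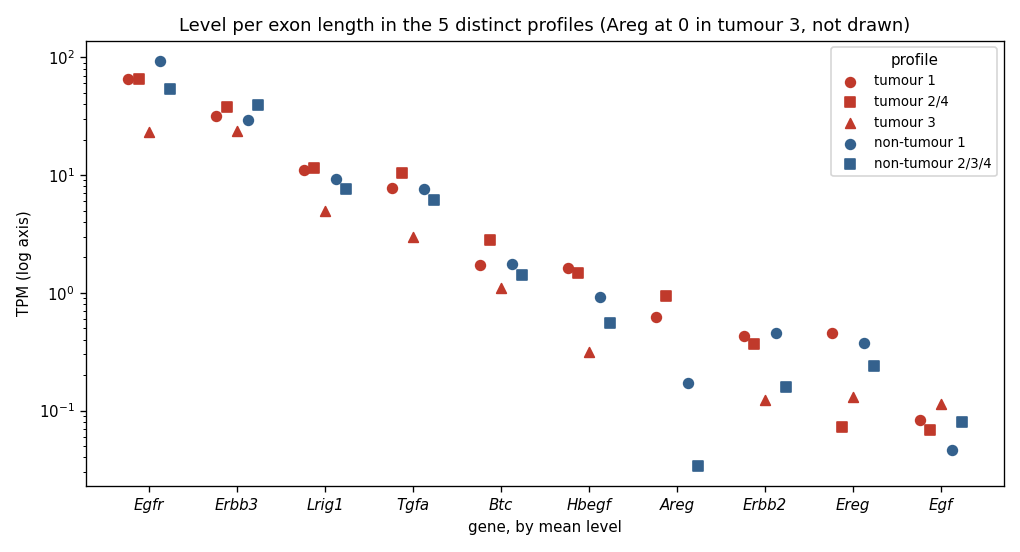
Level in TPM (log axis) of the 10 genes, ordered by mean, with 1 point for each of the 3 tumour profiles (red) and 2 non-tumour profiles (blue). Egfr and Erbb3 lie above all other genes and Tgfa above all other ligands, while Areg at 0 in tumour 3 is not drawn.

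Among the EGFR ligands, Tgfa was the main transcript everywhere. It made up 63.5%, 66.0% and 64.1% of the summed ligand TPM in tumour 1, tumour 2/4 and tumour 3, against 70.1% and 72.5% in non-tumour 1 and non-tumour 2/3/4. The ligand sum itself was 12.3, 15.8 and 4.64 TPM in these tumour profiles, against 10.9 and 8.40 TPM in the non-tumour profiles. Both the highest and the lowest ligand sum were thus in tumours. The sum of the 3 receptors was 97.9, 104 and 46.9 TPM in tumour 1, tumour 2/4 and tumour 3, and 123 and 94.1 TPM in non-tumour 1 and non-tumour 2/3/4. With TMM-scaled RPKM, counts per exon length with library composition corrected, these receptor sums were 47.1, 42.8 and 27.8 in tumour 1, tumour 2/4 and tumour 3, against 60.1 and 48.1 in non-tumour 1 and non-tumour 2/3/4. Tumour 1 and tumour 2/4 were then below non-tumour 2/3/4 where in TPM they were above it. The ligand sums kept their order of profiles, at 5.92, 6.47 and 2.75 in the tumour profiles, against 5.31 and 4.30 in the non-tumour profiles. Egfr was the largest share of the receptor sum in TPM in 4 profiles, and in tumour 3 Erbb3 took 50.5%.

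The question put to the 5 profiles was whether tumours and non-tumour liver differed in these transcripts. They did not, beyond the spread within groups, in any of the 9 genes that could be tested. With edgeR's quasi-likelihood test and Benjamini-Hochberg adjustment over 13650 genes, 0 of the 9 were called at an adjusted p under 0.05, against a background of 0% of all genes tested. At an unadjusted p under 0.05 the count was again 0 of the 9 (3.30% of all genes). DESeq2 and limma voom on the same profiles also called 0 of the 9. With all 8 libraries taken as separate samples edgeR called 0 of the 7 that passed its filter, against 0.435% of all genes. The tumour and non-tumour values overlapped for all 10 genes, against 18.4% of tested genes whose groups did not overlap. Areg was below the expression filter and has no test. With 3 profiles against 2 the intervals are wide, so the values that follow do not show that the groups are alike.

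**Figure D2:**
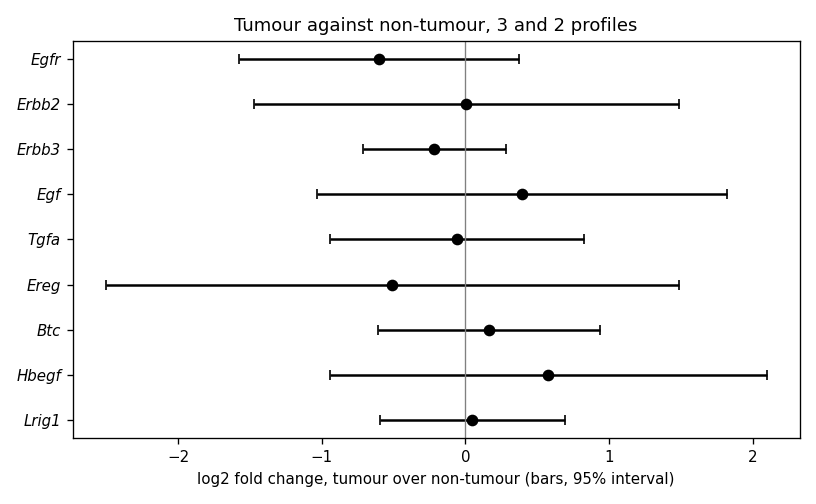
Log2 fold change, tumour over non-tumour, of the 9 tested genes (points) with 95% intervals (bars), from edgeR on 3 tumour and 2 non-tumour profiles. All 9 intervals include 0, and Erbb3 at -0.71 to 0.28 has the narrowest.

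Egfr encodes the receptor that all 6 of these ligands bind. It had 360, 306, 155 and 310 CPM in tumours 1 to 4, against 516, 309, 319 and 310 CPM in non-tumour pieces 1 to 4. CPM values given per library were scaled for library composition over the 8 libraries. Tumour 3 was the lowest piece and non-tumour 1 the highest, and the remaining 6 libraries lay between 306 and 360 CPM. Counted as profiles, Egfr averaged 273 ± 106 CPM in tumours (SD, n = 3) and 415 ± 142 CPM in non-tumour liver (SD, n = 2). The log2 fold change was -0.60, with a 95% interval of -1.58 to 0.38 (edgeR, adjusted p = 0.995). It was -0.32 without tumour 3, -0.21 without non-tumour 1 and -0.92 without non-tumour 2/3/4, so each of these profiles moved the value by more than 1.5 times on the log2 scale.

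The extremes of Egfr were well beyond counting error. Exact Poisson intervals at 95%, which cover counting error only, were 149 to 161 CPM in tumour 3 and 505 to 525 CPM in non-tumour 1. Egfr was 2.31-fold higher in tumour 1 than in tumour 3, a larger ratio than 93.8% of genes with a mean of at least 1 CPM showed between these profiles. Between the non-tumour profiles it was 1.64-fold higher in non-tumour 1, a larger ratio than 89.9% of genes. Between tumour 2/4 and non-tumour 2/3/4 the ratio was 0.976. Markers of Kupffer cells and sinusoidal endothelium were also highest in non-tumour 1. The summed level of all 7 Kupffer cell and macrophage markers was 172 to 229 CPM in the tumour profiles, and 605 CPM in non-tumour 1 beside 189 CPM in non-tumour 2/3/4. The 6 sinusoidal endothelium markers summed to 125 to 158 CPM in the tumour profiles, and to 258 and 114 CPM in the same non-tumour profiles. No marker of either list was at 0 in any library, and their part in the Egfr level was not tested.

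Erbb3 encodes a receptor with little kinase activity of its own that binds neuregulins and recruits PI3K once paired. Its level was the steadiest of the family, with 1.45-fold between the highest and the lowest profile, against 1.75-fold or more for each of the other genes with reads in every profile. It had 92.2, 94.0, 84.7 and 93.8 CPM in tumours 1 to 4, against 86.9, 122, 125 and 118 CPM in non-tumour pieces 1 to 4. The 4 tumours lay close together and non-tumour 1 fell among them, while the near-identical non-tumour pieces 2, 3 and 4 were higher. Tumour over non-tumour, the log2 fold change was -0.22, with a 95% interval of -0.71 to 0.28 (edgeR, adjusted p = 0.995). It was -0.17 without tumour 3 and 0.05 without non-tumour 2/3/4, so the negative sign rested on the last profile. The TPM ratio of Egfr to Erbb3 was 2.07, 1.74 and 0.975 in tumour 1, tumour 2/4 and tumour 3, against 3.15 and 1.37 in non-tumour 1 and non-tumour 2/3/4.

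Erbb2 encodes the receptor that has no known ligand and serves as the preferred partner of the others. It was read 24, 20, 6 and 12 times in tumours 1 to 4, against 23, 7, 2 and 11 times in non-tumour pieces 1 to 4. Each library thus held few reads, and the groups overlapped across their whole range. Profile means were 0.749 ± 0.354 CPM in tumours (SD, n = 3) and 0.788 ± 0.521 CPM in non-tumour liver (SD, n = 2), with a log2 fold change of 0.01 and a 95% interval of -1.47 to 1.49 (edgeR, adjusted p = 1.000). It was 0.31 without tumour 3, -0.32 without tumour 1, 0.84 without non-tumour 1 and -0.60 without non-tumour 2/3/4. The 3 near-identical non-tumour pieces alone were spread between 0.136 and 0.686 CPM, which shows how little these counts resolve.

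**Figure D3:**
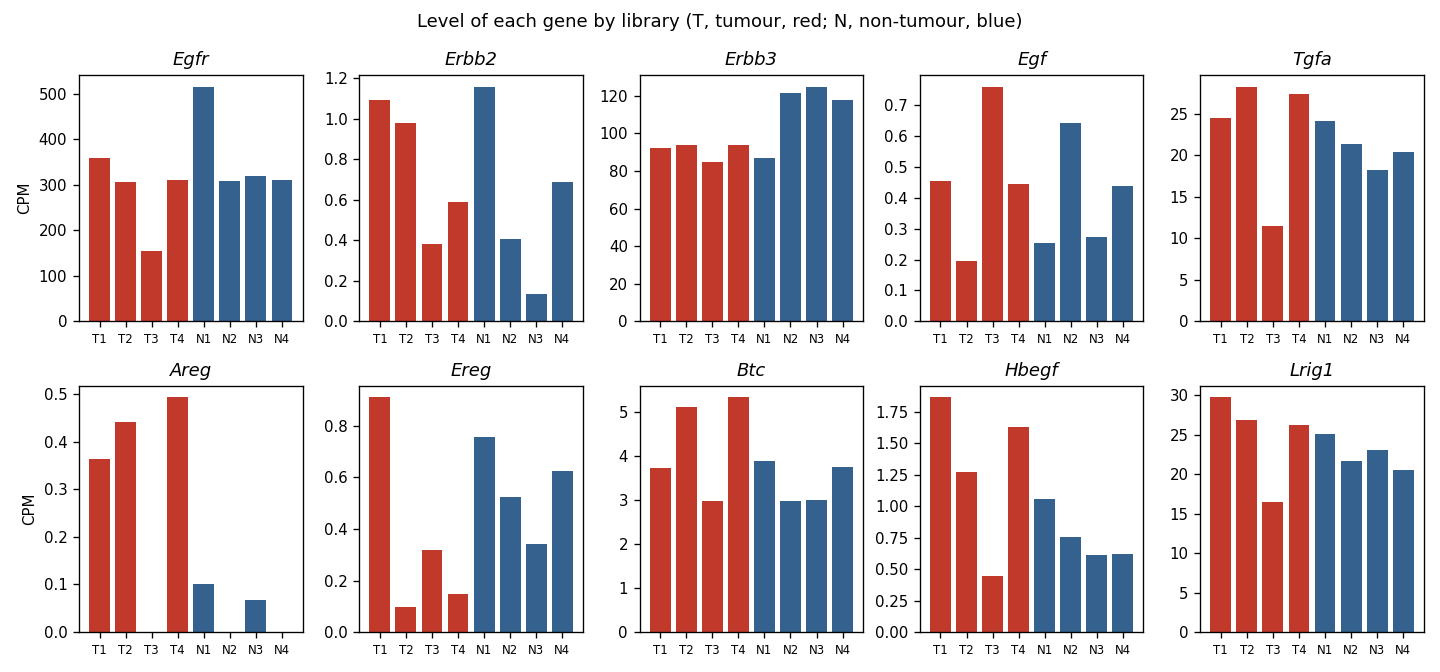
CPM of each gene in every library, tumours 1 to 4 (T, red) left of non-tumour pieces 1 to 4 (N, blue), with axes that start at 0 and differ between panels. Egfr is lowest in tumour 3 at 155 CPM and highest in non-tumour 1 at 516 CPM, and the red and blue bars overlap in every panel.

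Tgfa encodes transforming growth factor alpha, a ligand that hepatocytes themselves make. It had 24.6, 28.3, 11.5 and 27.4 CPM in tumours 1 to 4, against 24.2, 21.4, 18.3 and 20.5 CPM in non-tumour pieces 1 to 4. Tumours 1, 2 and 4 were all above the non-tumour pieces and tumour 3 was below all of them, so the groups overlapped only through tumour 3. Tumour 1 was not apart from non-tumour 1 within counting error, with Poisson intervals of 22.4 to 26.6 CPM and 22.0 to 26.4 CPM. Over all profiles the log2 fold change was -0.06 with a 95% interval of -0.94 to 0.83 (edgeR, adjusted p = 0.999). It turned to 0.24 without tumour 3 and to 0.07 without non-tumour 1, and was -0.31 without tumour 2/4. The Tgfa level in tumour 3 had a Poisson interval of 9.83 to 13.2 CPM, below the 20.2 CPM of the next profile, non-tumour 2/3/4.

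Btc encodes betacellulin, a ligand of EGFR and ERBB4. It had 3.73, 5.10, 2.98 and 5.32 CPM in tumours 1 to 4, against 3.88, 2.97, 3.00 and 3.74 CPM in non-tumour pieces 1 to 4. Tumours 2 and 4, which count as 1 profile, were the highest, and the others could not be separated. For Btc the log2 fold change was 0.16 with a 95% interval of -0.61 to 0.94 (edgeR, adjusted p = 0.995). It was 0.33 without tumour 3 and -0.09 without tumour 2/4.

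Hbegf encodes heparin-binding EGF-like growth factor, which also binds EGFR and ERBB4. It had 1.86, 1.27, 0.443 and 1.63 CPM in tumours 1 to 4, against 1.06, 0.757, 0.613 and 0.624 CPM in non-tumour pieces 1 to 4. As with Tgfa, tumours 1, 2 and 4 lay above all non-tumour pieces and tumour 3 below all of them. These levels rest on 41, 26, 7 and 33 reads in tumours 1 to 4, against 21, 13, 9 and 10 in non-tumour pieces 1 to 4. The Poisson interval of tumour 3, 0.178 to 0.911 CPM, included the 0.672 CPM of non-tumour 2/3/4. Those of tumour 2/4 (1.10 to 1.86 CPM) and non-tumour 1 (0.654 to 1.61 CPM) overlapped. Hbegf had the largest positive log2 fold change of the tested genes, 0.58, with a 95% interval of -0.94 to 2.10 (edgeR, adjusted p = 0.995). Without tumour 3 the value was 0.96 (edgeR, adjusted p = 0.590) and without non-tumour 1 it was 0.91, but it was 0.21 without tumour 1 and 0.26 without non-tumour 2/3/4. Among the 22 alternatives run, it passed the threshold only where the other 7 libraries were taken as separate samples, at 1.03 (edgeR, adjusted p = 0.0452), in a fit that counts near-identical libraries as replicates and called 13.6% of all genes.

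Areg encodes amphiregulin, which is known to be low in resting liver. It was read 8, 9, 0 and 10 times in tumours 1 to 4, against 2, 0, 1 and 0 times in non-tumour pieces 1 to 4. Tumours 1, 2 and 4 were above the floor of 3 counts, and tumour 3 and all non-tumour pieces were below it. In tumour 3, the 95% Poisson upper bound for 0 reads was 0.233 CPM, which lies below the interval of tumour 2/4 (0.280 to 0.727 CPM, 19 reads) and within those of tumour 1 (0.156 to 0.713 CPM) and non-tumour 1 (0.0122 to 0.363 CPM). These differences between single profiles were not tested. With every gene of at least 1 read kept in the fit, the fitted log2 fold change of Areg was 2.52 (edgeR, adjusted p = 0.372), and no alternative in which it was tested called it.

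Ereg encodes epiregulin, a ligand of EGFR and ERBB4 whose gene lies close to Areg. It was read 20, 2, 5 and 3 times in tumours 1 to 4, against 15, 9, 5 and 10 times in non-tumour pieces 1 to 4. Its order differed from that of Areg, with tumours 2 and 4 among the lowest and tumour 1 and non-tumour 1 the highest. Between tumour 1 and tumour 2/4 Ereg differed 7.39-fold, on 20 and 5 reads, whose Poisson intervals of 0.552 to 1.40 CPM and 0.0398 to 0.286 CPM did not overlap. Over all profiles, Ereg had a log2 fold change of -0.51 with a 95% interval of -2.51 to 1.49 (edgeR, adjusted p = 0.995), the widest of the 9, and of -0.38 without tumour 3, -1.63 without tumour 1 and 0.01 without tumour 2/4.

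Egf encodes the founding ligand of the family, made mainly in kidney and salivary gland. It was read 10, 4, 12 and 9 times in tumours 1 to 4, against 5, 11, 4 and 7 times in non-tumour pieces 1 to 4. It was the lowest gene of the family per length and the only one with its highest level in tumour 3, at 0.760 CPM, as were 29.7% of all genes tested. Its log2 fold change was 0.39 with a 95% interval of -1.04 to 1.82 (edgeR, adjusted p = 0.995), and it was 0.01 without tumour 3, 0.08 without non-tumour 1 and 0.96 without non-tumour 2/3/4.

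Lrig1, the inhibitor, had 29.7, 26.8, 16.5 and 26.3 CPM in tumours 1 to 4, against 25.1, 21.7, 23.0 and 20.5 CPM in non-tumour pieces 1 to 4. Tumours 1, 2 and 4 were above every non-tumour piece and tumour 3 below, the same order of groups as for Tgfa and Hbegf. The Poisson intervals of tumour 2/4 (24.9 to 28.1 CPM) and non-tumour 1 (22.9 to 27.3 CPM) overlapped. The difference in Lrig1 between groups was 0.05 log2 units with a 95% interval of -0.59 to 0.69 (edgeR, adjusted p = 0.999), and 0.26 without tumour 3 but -0.12 without tumour 1. Set against its target, Lrig1 stayed below Egfr in each profile. The Egfr to Lrig1 ratio in TPM was 5.97, 5.72 and 4.64 in tumour 1, tumour 2/4 and tumour 3, against 10.1 and 7.11 in non-tumour 1 and non-tumour 2/3/4, so all 3 tumour ratios were lower than both non-tumour ratios. This ratio was computed after the values had been seen and was not tested.

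A shared feature of several genes was their low level in tumour 3. Of the 9 tested genes, 7 were lowest in tumour 3 among the 5 profiles (Egfr, Erbb2, Erbb3, Tgfa, Btc, Hbegf and Lrig1), where 30.8% of all tested genes were lowest. In 3 of the 9 (Egfr, Tgfa and Hbegf), tumour 3 was at least 1.5-fold below the next profile, where the share of all genes was 6.10%. For Hbegf this step rested on 7 reads in tumour 3 and was within counting error. Erbb2, Erbb3 and Btc in tumour 3 were also within counting error of the next profile. Their Poisson intervals there were 0.139 to 0.825, 80.0 to 89.1 and 2.18 to 3.95 CPM. The next profiles had 0.420 CPM (Erbb2, non-tumour 2/3/4), 86.8 CPM (Erbb3, non-tumour 1) and 3.26 CPM (Btc, non-tumour 2/3/4). The genes are few and were not drawn at random, so these shares are a description. Relative to tumour 1, tumour 3 was lower by 2.31-fold in Egfr, 2.14-fold in Tgfa, 4.19-fold in Hbegf and 1.79-fold in Lrig1, but by only 1.09-fold in Erbb3. Between the same profiles, the middle 90% of all genes with a mean of at least 1 CPM ran from 0.503-fold to 2.59-fold. Hbegf was thus beyond that range, Egfr and Tgfa within its upper part, and Erbb3 near its middle.

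Tumour 3 also stood apart from the other tumours in liver tumour markers. The 10 listed summed to 1825, 1125 and 18.6 CPM in tumour 1, tumour 2/4 and tumour 3, against 135 and 39.1 CPM in non-tumour 1 and non-tumour 2/3/4. Averaged over the tested members, log2 CPM minus the mean of the 5 profiles was -3.19 in tumour 3, the lowest mean of any list in any profile. Afp, the fetal liver protein used as a tumour marker, had 841, 425, 1.46 and 426 CPM in tumours 1 to 4, against 19.4, 4.89, 4.70 and 5.05 CPM in non-tumour pieces 1 to 4. Of the 9 tested, 0 were called and 4 had an unadjusted p under 0.05 (edgeR), against 3.30% of all genes tested. Peg3 alone had all tumour profiles above both non-tumour profiles, as did 9.46% of all genes tested.

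A sum of cholangiocyte markers had a like order. The 7 cholangiocyte markers, of which none was at 0 in any library, summed to 403, 193 and 22.7 CPM in tumour 1, tumour 2/4 and tumour 3, against 35.2 and 36.8 CPM in non-tumour 1 and non-tumour 2/3/4. Hbegf and Tgfa were likewise highest in tumours 1 and 2/4 and lowest in tumour 3. All 6 of these markers that were tested had a positive fold change, as did 52.2% of all genes tested. Of the 6, 0 were called and 1 had an unadjusted p under 0.05 (edgeR), against 3.30% of all genes tested. Spp1 and Tspan8, of which Tspan8 is also on the liver tumour list, carried most of the sum, and the keratin markers did not follow it. Krt7 had 2.46, 0.441, 0.633 and 0.197 CPM in tumours 1 to 4, against 0.151 to 0.273 CPM in non-tumour pieces. Krt19 had 2.59, 0.392, 0.380 and 0.0986 CPM in tumours 1 to 4, against 0.187 to 0.409 CPM in non-tumour pieces, so among the tumours neither was lowest in tumour 3. The part of either list in the levels of Hbegf, Tgfa or Areg was not tested.

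**Figure D4:**
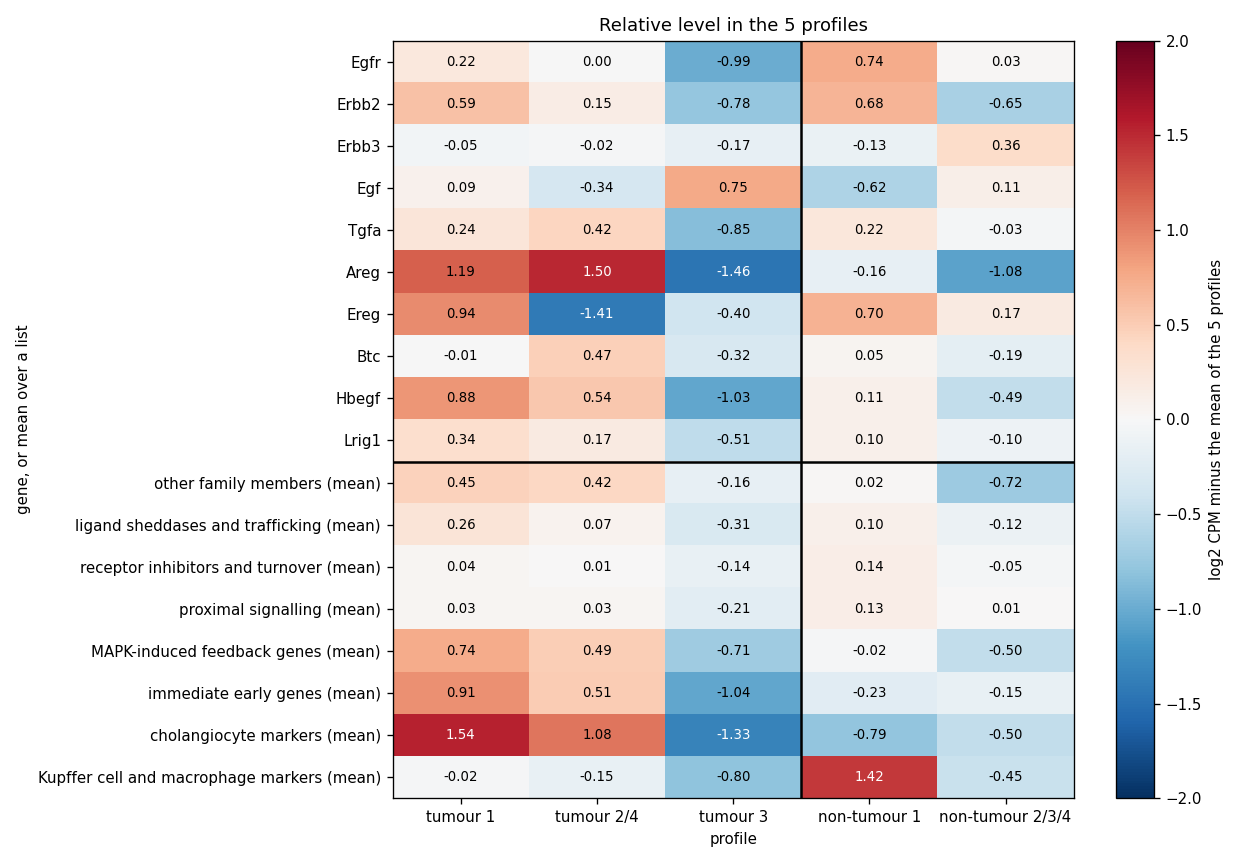
Log2 CPM of each gene minus its mean over the 5 profiles (columns, tumours left of the line), and the mean of the same quantity over the tested genes of 6 pathway lists and 2 marker lists (lower rows). Tumour 3 is negative for every gene of the family but Egf, from -0.17 in Erbb3 to -1.46 in Areg, and for the 8 lists drawn. Among lists not drawn it was positive in the clock (0.38), male-biased (0.06) and mesothelium (0.76) lists. The clock mean joins genes that were lowest and genes that were highest in tumour 3.

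The genes nearest in pattern were found for the 3 family genes that spanned over 1 log2 unit with a mean of at least 1 CPM. Likeness was the root mean square difference of centred log2 CPM over the 5 profiles, among 11423 genes. For Egfr the nearest were Capza1, an actin-capping subunit, at 0.07 log2 units, and Slc10a5, a solute carrier, at 0.10. Capza1 had 9.40, 8.57 and 4.10 CPM in tumour 1, tumour 2/4 and tumour 3, against 13.4 and 7.52 CPM in non-tumour 1 and non-tumour 2/3/4. For Tgfa they were the phosphatase gene Ptpn9, at 0.05, and Tbc1d8b, at 0.06. Ptpn9 had 20.4, 22.6 and 10.3 CPM in the same tumour profiles and 19.9 and 16.9 CPM in the non-tumour profiles. For Hbegf they were Cntln and the caveolin gene Cav2, at 0.08 and 0.09. With 5 profiles and so many candidates, some genes lie this near to any pattern.

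Egfr and Areg, the most abundant gene of the family and one of the rarest, also differ in the letters of their promoters. Both windows run from 250 bases before to 50 after the RefSeq start in GRCm38.p6, plus strand. In Egfr (chr11:16751953-16752252) capitals mark TCCTCC, whose matches overlap at the last run and which was found in 34.5% of 32851 promoters. In Areg (chr5:91139349-91139648) they mark TGACGTCA, the cyclic AMP response element, and TATAAA, the TATA box, which were in 1.79% and 13.6% of promoters on either strand.
Egfr: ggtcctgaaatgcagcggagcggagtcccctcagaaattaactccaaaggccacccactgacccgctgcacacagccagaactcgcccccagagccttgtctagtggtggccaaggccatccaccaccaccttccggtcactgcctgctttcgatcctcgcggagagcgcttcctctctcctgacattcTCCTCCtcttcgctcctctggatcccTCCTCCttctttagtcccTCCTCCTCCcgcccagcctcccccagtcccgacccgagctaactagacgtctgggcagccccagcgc
Areg: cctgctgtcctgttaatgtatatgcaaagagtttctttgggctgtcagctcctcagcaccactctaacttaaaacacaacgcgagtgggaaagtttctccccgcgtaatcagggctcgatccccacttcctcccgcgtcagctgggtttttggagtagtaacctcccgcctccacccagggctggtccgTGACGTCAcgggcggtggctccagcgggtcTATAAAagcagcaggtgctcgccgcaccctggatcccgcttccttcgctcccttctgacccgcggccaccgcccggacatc

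In Areg the response element began 61 bases and the TATA box 31 bases before the start. Promoters were in the table for 7 of the 10 genes, and neither TGACGTCA nor TATAAA was found in the windows of the other 6. TCCTCC was also in the Areg and Erbb2 windows. Egf had 2 windows, and all were searched. Of the other motifs searched on both strands, the GC box GGGCGG was found in 4 of the 7 genes (35.7% of all promoters). The AP-1 motif TGANTCA, the E-box CACGTG, the STAT motif TTCNNNGAA and the EGR1 motif GCGNGGGCG were found in 0 of the 7 (7.81%, 7.15%, 8.3% and 5.55% of all promoters). A match of letters is a description and says nothing of whether a factor binds there.

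The rest of the pathway was read from lists around the 10 genes. Of the other family members, Nrg1, a neuregulin ligand of ERBB3, had 7.64, 5.88, 0.570 and 6.01 CPM in tumours 1 to 4, against 2.27, 0.524, 0.204 and 0.312 CPM in non-tumour pieces 1 to 4. Tumours 1, 2 and 4 were higher than all non-tumour pieces, and tumour 3 lay among them. The log2 fold change of 1.94 had an SE of 1.15 (edgeR, adjusted p = 0.995), and Nrg4 and the receptor gene Erbb4 had values of 0.42 and -0.10. Epgn, Nrg2 and Nrg3 were below the expression filter.

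Genes that shed or traffic the ligands were measured for 8 of 9 listed, and 0 of the 8 were called (edgeR). At an unadjusted p under 0.05 there was 1 of the 8, against 3.30% of all genes tested. Rhbdf1 and Rhbdf2, which encode the iRhoms that carry the sheddase ADAM17 to the surface, had all tumour profiles above both non-tumour profiles, as did 9.46% of all genes tested. Rhbdf1 had 11.8, 8.83, 5.57 and 8.38 CPM in tumours 1 to 4, against 4.38, 3.78, 4.36 and 3.55 CPM in non-tumour pieces 1 to 4 (log2 fold change 1.06, SE 0.34; edgeR, adjusted p = 0.995). The gene Adam17 itself overlapped between groups. The median over the 8 was -0.05, beside 0.01 over all genes tested.

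Of 15 tested inhibitor and turnover genes, 0 were called and 0 had an unadjusted p under 0.05 (edgeR), and the median was -0.15. In 4 of them all tumour profiles were below both non-tumour profiles, as in 8.89% of all genes. Errfi1, which encodes the EGFR kinase inhibitor MIG6, was among these, at 624, 382, 574 and 379 CPM in tumours 1 to 4, against 677, 645, 665 and 653 CPM in non-tumour pieces 1 to 4 (log2 fold change -0.35, SE 0.28; edgeR, adjusted p = 0.995). Of 26 proximal signalling genes, 0 were called, with 1 at an unadjusted p under 0.05 (edgeR, 3.30% of all genes), and the median was -0.10. In 9 of the 26 the tumour profiles were all lower, where the share of all genes tested was 8.89%. Among the 9 were the kinase gene Akt2 (log2 fold change -0.46), the RAS activator gene Sos1 (-0.36) and Stat5b (-0.39).

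Transcripts known to be induced downstream of MAPK signalling had fold changes that were mostly positive but did not pass. Of 13 tested feedback genes 12 had a positive log2 fold change (median 0.56), and of 9 immediate early genes 8 did (median 0.36), against 52.2% of all genes tested. Egr1 is in both lists. In both lists 0 were called, as were 0% of all genes tested. At an unadjusted p under 0.05 there were 0 in both (edgeR), against 3.30% of all genes tested. All groups overlapped, where 18.4% of all genes tested had groups that did not. Tumour 3 again set the overlap in several. Dusp6, which encodes an ERK phosphatase, had 72.8, 62.7, 27.1 and 65.2 CPM in tumours 1 to 4, against 41.0, 16.0, 20.4 and 17.5 CPM in non-tumour pieces 1 to 4. Egr1, an immediate early gene, had 89.8, 55.3, 2.66 and 55.7 CPM in tumours 1 to 4, against 17.3, 20.96, 21.5 and 21.6 CPM in non-tumour pieces 1 to 4. Like Tgfa, Hbegf and Lrig1, Egr1 was thus highest in tumours 1, 2 and 4 and lowest in tumour 3.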

How the data were processed

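RNA from 8 mouse liver pieces, 4 tumours and 4 non-tumour, was analysed from the deposited raw counts per gene. Those counts were made by featureCounts 1.6.2 from Ensembl release 95 exons, per the file headers, at strand setting 2 and leaving out multi-mapping reads. The submitters' processing notes name STAR 2.5.0, Subread 1.6.2 and GRCm38. Exon lengths are also those deposited by the authors, and TPM were computed from them. Libraries under a chi-square of 10 per degree of freedom, over genes with at least 20 reads in the pair, were summed.

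The test was edgeR 4.0.16 (R 4.3.3; glmQLFit, robust, glmQLFTest) on the 5 profiles. Scaling was by TMM, and filterByExpr kept genes at its defaults of 10 counts and 15 in total. P-values were adjusted by Benjamini-Hochberg and called under 0.05. Profile CPM were scaled over the 5 profiles. Log2 CPM used a prior count of 2. The 95% intervals use edgeR's degrees of freedom.

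The members, lists, rule for named genes and alternatives were chosen with earlier results of these data known. Named were all 10 members, up to 3 genes of a list with the lowest p, and 2 nearest in pattern. Adam17, Afp, Epgn, Krt19, Nrg2 and Nrg3 fall outside this rule and were added with their values known. DESeq2 1.42.0 was run as an alternative, as were limma 3.58.1 (voom), other scalings and filters, a replicate block, libraries kept separate, and leaving out each library. The scripts were tested on simulated data.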

Additional observations from a re-analysis of the deposited data

Results flagged for a closer look

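Egfr was at 516 CPM in non-tumour 1, while the other 3 non-tumour libraries lay between 309 and 319 CPM. The gap to the nearest of them was 0.951 of the whole range of the group, above Dixon's 95% critical value for 4 samples. Those 3 libraries were near-identical, so the group holds 2 distinct profiles, and a gap near the whole range follows for any gene on which those 2 profiles differ. The critical value assumes 4 independent samples and does not hold for this group, so the gap is given as a description.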

How the results depend on the processing

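Of 13650 genes 0 were called over the 5 profiles (451 at an unadjusted p under 0.05). The count was 56 with the 8 libraries as separate samples, 1798 with 7 of them and tumour 3 left out, 427 with every gene of at least 1 read kept, and 2 with DESeq2. Leaving out 1 library or profile gave 0 to 5 calls, the 5 without tumour 3. The cause was not tested, though the 8- and 7-library fits count near-identical libraries as replicates.

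Egfr kept a negative log2 fold change in all 22 alternatives (-0.92 to -0.16), and Egf and Hbegf a positive one wherever tested. The sign of Erbb2 turned with DESeq2 size factors (-0.0082), with every gene kept (-0.017) and with DESeq2 (-0.0385). That of Tgfa turned with the 8 libraries (0.12), with the replicate block (0.0604) and with 7 libraries (0.34). Over the fits that left out 1 library or profile, values ran from -0.60 to 0.84 for Erbb2, -0.45 to 0.0497 for Erbb3, -0.31 to 0.24 for Tgfa, -1.63 to 0.0090 for Ereg, -0.0949 to 0.33 for Btc, -0.12 to 0.26 for Lrig1, 0.0067 to 0.96 for Egf and 0.21 to 0.96 for Hbegf. A fit with 1 non-tumour profile assumes that it varies like the tumours. Mean levels per length were lower in TMM-scaled RPKM than in TPM, which is another unit, with the same order of the 10 genes. Other scalings moved the median of all genes to at most 0.03.

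Whether replicate numbers pair the samples is not known, since the labels do not say that a number marks a shared mouse. Deviations of same-numbered libraries correlated at 0.35, -0.15, 0.29 and -0.12. Tumours 1 and 3 correlated best with their own number, and tumours 2 and 4 with non-tumour 1. Non-tumour 2, 3 and 4 are near-identical, so these correlations cannot tell their numbers apart. With the number as a block over 8 libraries, 0 genes were called (2264 at an unadjusted p under 0.05), with 0.0518 as the smallest adjusted p. Depth limits Areg, Egf, Ereg and Erbb2, with at most 24 reads per library, and also Hbegf, with 7 reads in tumour 3.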

Other observations

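A group of liver genes outside the family was on average lowest in tumour 2/4 and highest in non-tumour 2/3/4. In the family only Ereg was lowest in tumour 2/4, and only Erbb3 was highest in non-tumour 2/3/4. Averaged over the 12 male-biased growth hormone dependent genes, centred log2 CPM was -0.18, -0.96 and 0.06 in tumour 1, tumour 2/4 and tumour 3, against 0.41 and 0.67 in non-tumour 1 and non-tumour 2/3/4. Of the 12, 0 were called and 4 had an unadjusted p under 0.05 (edgeR), against 3.30% of all genes tested. A negative log2 fold change was found in 11 of the 12, against 47.8% of all genes tested. The median was -0.76 beside 0.01 over all genes tested. In 6 of the 12 all tumour profiles were below both non-tumour profiles, as in 8.89% of all genes. Elovl3, a fatty acid elongase gene, averaged 192 ± 81.6 CPM in tumours (SD, n = 3) and 584 ± 110 CPM in non-tumour liver (SD, n = 2). Tumour 3, lowest in Egfr, Tgfa and Hbegf, stood apart in single genes of the clock list, where 0 of 11 genes were called and 0 had an unadjusted p under 0.05. Its clock-controlled gene Dbp had 4.27, 13.6, 85.2 and 14.2 CPM in tumours 1 to 4, against 3.98, 9.61, 9.27 and 10.04 CPM in non-tumour pieces 1 to 4. Time of sampling is not given in the labels, and its part in the levels of the family was not tested.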
